A study of Saccharomyces cerevisiae with 16 samples.

Results

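The promoters of 10 budding yeast genes for leucine, isoleucine and valine were examined in calling-card libraries. The genes were LEU1, LEU4, LEU9, ILV2, ILV3, ILV5, ILV6, BAT1, BAT2 and BAP2. A promoter region was the stretch between neighbouring genes that lies upstream of a named gene, read from the order and strand of the flanking genes, and no insertion count entered that choice. The 10 regions were found in all 16 tables, among 4740 regions in 15 of them and 4532 in the Gal4 table.

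In the calling-card assay a transcription factor is fused to Sir4, which recruits the Ty5 retrotransposon, so that Ty5 inserts near DNA the fusion occupies. Each of 12 zinc cluster factors (Leu3, Tea1, Yrm1, Yrr1, Lys14, Cat8, Cha4, Put3, Urc2, Hal9, Aro80 and Gal4) was profiled in a BY4741 strain deleted for SIR4 and for the factor's own gene (genotypes such as sir4D leu3D). In 4 further strains, deleted for SIR4, GAL4 and also HMO1 (labelled hmoD), LEU3, SEF1 or YRM1, the Gal4 fusion was profiled. Those strains are labelled BY4742 (hmo1Δ), BY4743 (leu3Δ), BY4744 (sef1Δ) and BY4745 (yrm1Δ), so strain name and deletion cannot be told apart, and the labels do not say whether the strain backgrounds differed. In all strains the fusion was expressed from a plasmid under the ADH1 promoter rather than from its own, on a plasmid with LEU2 and URA3 markers, and Ty5 was driven by the inducible GAL1/10 promoter.

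The synthesis of leucine, isoleucine and valine shares a set of mitochondrial enzymes. Ilv2 with its regulatory subunit Ilv6, then Ilv5 and then Ilv3, build the keto acid precursors. Leu4 and Leu9 divert a valine precursor to α-isopropylmalate, Leu1 and Leu2 complete the leucine branch, and the transaminases Bat1 (mitochondrial) and Bat2 (cytosolic) exchange the amino groups. Leu3 activates genes of this pathway when it binds α-isopropylmalate, and Bap2 is a permease that imports the same amino acids.

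Each group had 1 library, so no replicate error could be given. The 95% intervals shown cover counting error only. Libraries held 18295 (Cha4) to 36063 (Leu3) insertions for the 12 factors and 6932 (hmo1Δ) to 13882 (sef1Δ) for the Gal4 deletion strains. Values are insertions, insertions per 100000 in the library, or the fold over background, which is the library's share of insertions in a region over the share in the authors' background set. Called regions are those with 5 or more insertions and an authors' hypergeometric p of at most 0.001.

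Leu3 occupied nearly the whole set. It was called at 8 of the 10 promoters, against 2.28% of all regions in its table, and the exceptions were ILV6 and BAT2. Together the 10 regions held 2563 Leu3 insertions, 7.11% of that library (6.84 to 7.38), against 0.386% of the background. The median fold of the 10 regions was 12.2 in the Leu3 library, beside 0.350 over all regions with background insertions.

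**Figure D1:**
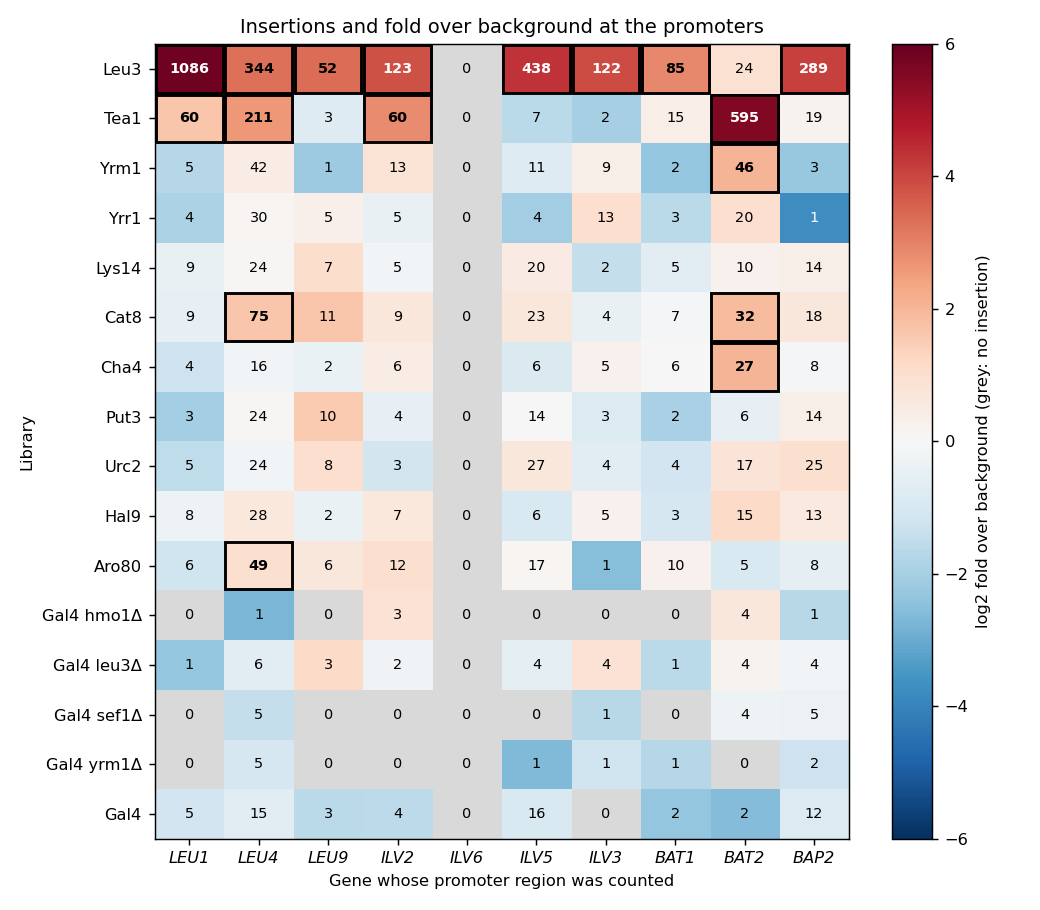
Insertions (numbers) and log2 fold over background (colour) at the promoter of each gene (columns) in each library (rows), with grey for no insertion and black frames with bold numbers for called regions. The Leu3 row has 8 frames and the Tea1 row 4, with 595 Tea1 insertions at BAT2 and no insertion at ILV6 in any library.

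The leucine branch held the strongest promoter. LEU1, which encodes isopropylmalate isomerase (LEU1/PMA1, chromosome VII 478652 to 479910), took 1086 Leu3 insertions against 44 of 84109 in the background, 57.6-fold (42.6 to 79.7). This was the region with the most insertions in the Leu3 library and 42.4% of the Leu3 insertions at the 10 promoters. The region runs between the start of LEU1 and the end of the proton pump gene PMA1, so it holds a single promoter. In the other 11 factor libraries the fold at LEU1 ranged from 0.241 (Put3) over a median of 0.438 to 3.21 (Tea1). Tea1 alone among those was above background, and 10 of 11 were below it.

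LEU4 and LEU9 encode isozymes of α-isopropylmalate synthase, the entry to the leucine branch. LEU4 (LEU4/MET4, chromosome XIV 426754 to 427735) held 344 Leu3 insertions against 82 in the background, 9.78-fold (7.67 to 12.6). This region is also the promoter of MET4, an activator of sulfur metabolism transcribed the other way, and the tables do not separate their insertions. LEU9 (RGS2/LEU9, chromosome XV 522282 to 523027) held 52 against 12, 10.1-fold (5.32 to 20.8). The folds of the isozyme genes thus overlapped within counting error in the Leu3 library, although LEU4 held more insertions per length, at 972 per 100000 per kb, against 194 for LEU9. The background set was likewise denser at LEU4, with 83.6 insertions per kb against 16.1 at LEU9.

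LEU4 was called in more libraries than LEU9. It was also called for Tea1 (211 insertions, 6.06-fold, 4.68 to 7.92), Cat8 (75, 3.21-fold, 2.32 to 4.45) and Aro80 (49, 1.92-fold, 1.32 to 2.77), and its median fold over the 11 factors other than Leu3 was 1.09. LEU9 was called for Leu3 only, and its next highest folds, 3.22 for Cat8 (1.29 to 7.97; 11 insertions) and 2.95 for Put3 (1.14 to 7.45; 10 insertions), did not pass the threshold, although Cat8 did with p at 0.01 or the authors' Poisson p. The LEU9 interval of Leu3 overlapped that of 5 of the 15 other libraries, which held 3 to 11 insertions there.

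The genes of the shared enzymes that build the keto acid precursors were called for Leu3 with the exception of the regulatory subunit. ILV2, the catalytic subunit of acetolactate synthase (SPG4/ILV2, chromosome XIII 483361 to 484084), held 123 Leu3 insertions against 20 in the background, 14.3-fold (8.90 to 24.3). ILV5, the reductoisomerase (ILV5/ATG33, chromosome XII 839253 to 840321), held 438 against 51, 20.03-fold (14.96 to 27.3), and ranked 4th among all regions in that library. The ILV5 interval is also the promoter of ATG33, and the counts do not separate these genes. ILV3, the dehydratase (ILV3/ESS1, chromosome X 466208 to 466521), held 122 against 19, 14.98-fold (9.19 to 25.7). The ILV3 interval is only 313 bp long, and per length its Leu3 level of 1081 insertions per 100000 per kb was close to the 1137 of ILV5, which is 1068 bp long.

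ILV6 (ILV6/STP22, chromosome III 105548 to 105696) held no insertion in any of the 16 libraries. The interval is 148 bp long and held 1 background insertion in 15 tables and 2 in the Gal4 table. A count of 0 allows up to 8.32 insertions per 100000 in the Leu3 library. At the observed background share, the fold of each member called for Leu3 would have passed this limit, and that of BAT2 would not. That share rests on 1 background insertion, however. With so little background the fold at ILV6 had a 95% interval of 0 to 91.0 in that library. This interval includes the folds of all other members, so it cannot decide whether ILV6 was enriched.

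Outside the Leu3 library, ILV3 and ILV5 stood near or under background. ILV3 ranged from 0 (Gal4, no insertion) over a median of 0.645 to 2.03-fold (Yrr1, 0.923 to 4.34) in the other 11 factor libraries, and ILV5 ranged from 0.233 (Yrr1) over 0.578 to 1.62-fold (Urc2, 0.978 to 2.64), with the Gal4 value taken over a wider interval. ILV2 differed from them in a high Tea1 value, with 60 insertions and 7.07-fold (4.20 to 12.4), and Tea1 was the only other library in which it was called. Its median over the 11 was 1.38-fold.

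The transaminase genes split. BAT1 (SET5/BAT1, chromosome VIII 516485 to 517532), whose interval is also the promoter of the methyltransferase gene SET5, held 85 Leu3 insertions against 27 in the background, 7.34-fold (4.71 to 11.8). It was called for Leu3 alone, and the highest fold among the other factors was 1.31 (Tea1, 0.647 to 2.55). BAT2 (HMS2/BAT2, chromosome X 705272 to 705744) held 24 Leu3 insertions against 30, 1.87-fold (1.04 to 3.30). Its authors' p of 0.0174 did not reach the threshold for a call.

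BAT2 was called for 4 other factors instead. Tea1 placed 595 insertions there, 46.7-fold (32.4 to 69.9), which was 61.2% of its insertions at the 10 promoters and its 7th most used region. It was also called for Cha4 (27 insertions, 4.14-fold, 2.37 to 7.20), Yrm1 (46, 4.11-fold, 2.54 to 6.75) and Cat8 (32, 3.75-fold, 2.21 to 6.38). Leu3 was 7th of the 12 factors by fold at BAT2, with Hal9 (2.24), Yrr1 (1.98) and Urc2 (1.74) nearest to it. The Leu3 interval there overlapped those of 13 of the 15 other libraries, including Cha4, Yrm1 and Cat8 but not Tea1 or Gal4. The fold of Gal4 at BAT2 was 0.167 (0.0195 to 0.647; 2 insertions).

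The permease gene BAP2 (BAP2/TAT1, chromosome II 375690 to 376574) held 289 Leu3 insertions against 39 in the background, 17.3-fold (12.3 to 24.8). Among the other 11 factors the fold ranged from 0.0762 (Yrr1, 1 insertion) over a median of 1.15 to 1.96 (Urc2, 25 insertions, 1.14 to 3.33), and none was called. The Leu3 interval at BAP2 lay above that of all 15 other libraries, as it did at LEU1, ILV3, ILV5 and BAT1.

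**Figure D2:**
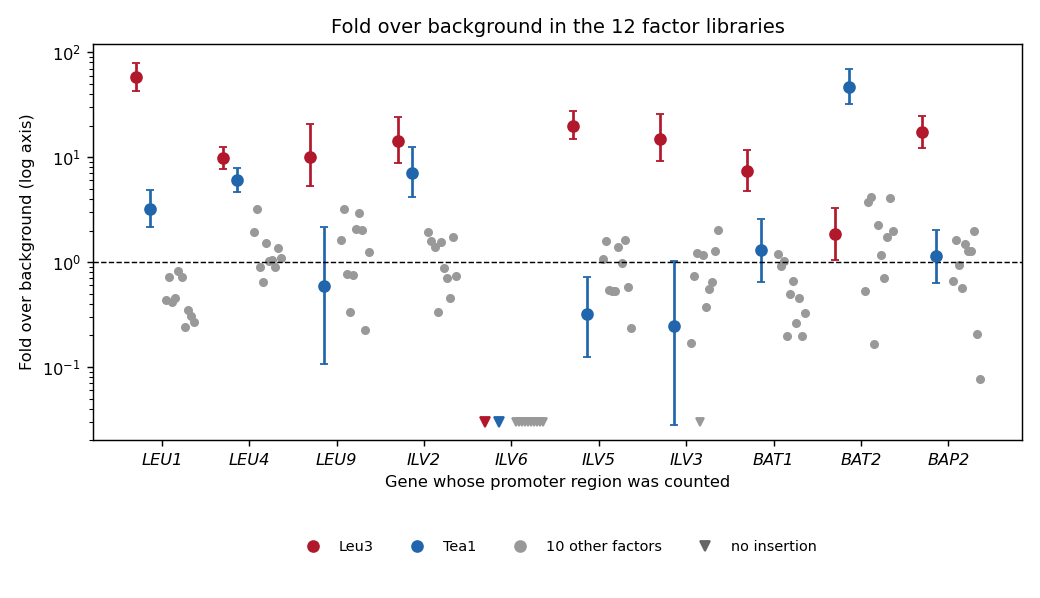
Fold over background on a log axis at each promoter in the 12 factor libraries, with 95% counting intervals for Leu3 (red) and Tea1 (blue) and points for the other 10 factors. Leu3 lies highest at 8 genes and Tea1 at BAT2 (46.7-fold), and triangles mark regions without an insertion.

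Within the Leu3 library the folds spanned a wide range. LEU1 (57.6-fold) had an interval above those of the other 8 members with Leu3 insertions. ILV5 (20.03), BAP2 (17.3), ILV3 (14.98), ILV2 (14.3), LEU9 (10.1), LEU4 (9.78) and BAT1 (7.34) followed, and each overlapped its neighbour in that order. The interval of ILV5 lay above those of LEU4 and BAT1, and that of BAP2 lay above that of BAT1. BAT2 (1.87) lay below all of these members. Per length the order differed in places, with 2394 insertions per 100000 per kb at LEU1, 907 at BAP2, 472 at ILV2, 225 at BAT1 and 141 at BAT2.

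Leu3 and Tea1, the libraries with the most calls in the set, were compared directly. The same counts gave those calls, so the comparison describes the differences and is not separate evidence. Tea1 was called at 4 of 10 promoters, against 2.38% of all regions, and its pooled fold was 7.05 (6.21 to 8.02), or 3.01 without BAT2. A two-sided Fisher's exact test with Benjamini-Hochberg adjustment was run over 819 regions, and it compares these 2 libraries rather than conditions. Leu3 was higher at 8 of the 9 members tested, against 15.5% of all tested regions, and lower at BAT2, against 17.5% of all tested regions. ILV6 had no insertion in either library and was not tested. The median log2 ratio was 3.88 over the 9 members and -0.01 over all regions tested.

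The size of the difference varied by gene. At ILV5 the Leu3 library held 438 insertions and the Tea1 library 7, a ratio of 61.9 (29.8 to 155; adjusted p = 2.5e-117, Fisher's exact test). At ILV3 the counts were 122 for Leu3 and 2 for Tea1, a ratio of 60.4 (16.4 to 504). LEU1 (17.9), LEU9 (17.2), BAP2 (15.1) and BAT1 (5.61) also favoured Leu3. Tea1 was itself called at LEU1, ILV2 and LEU4. The smallest ratios were 2.03 at ILV2 (123 Leu3 insertions against 60 for Tea1, 1.48 to 2.81; adjusted p = 2.28e-05, Fisher's exact test) and 1.61 at LEU4 (344 against 211, 1.36 to 1.92; adjusted p = 1.96e-07, Fisher's exact test). BAT2 ran the other way, with 24 Leu3 insertions against 595 for Tea1, a ratio of 0.0399 (0.0254 to 0.0600; adjusted p = 4.1e-144, Fisher's exact test).

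**Figure D3:**
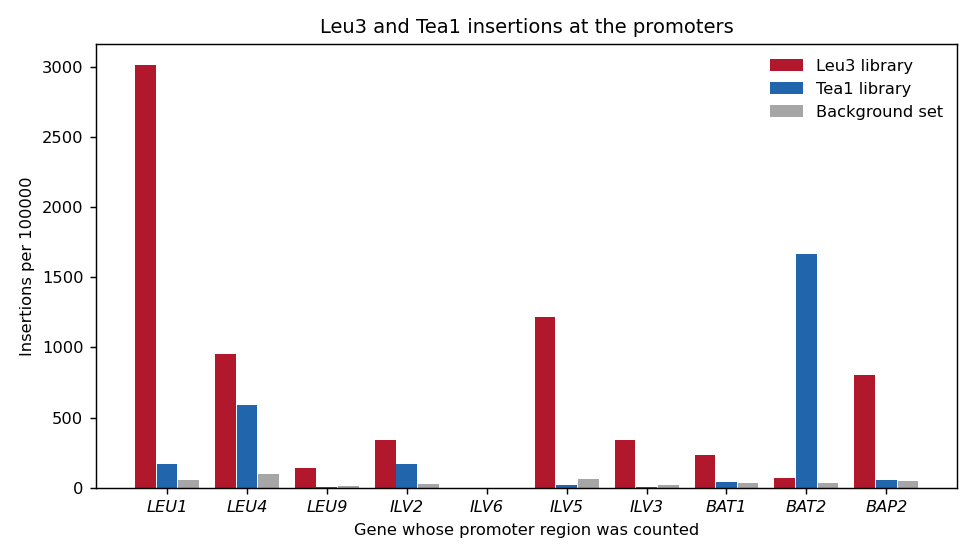
Insertions per 100000 at each promoter in the Leu3 library (red), the Tea1 library (blue) and the background set (grey). Leu3 reaches 3011 at LEU1 and Tea1 1667 at BAT2, and Leu3 exceeds the background at each gene except ILV6.

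The remaining factors touched the set sparsely. Cat8 was called at 2 promoters (LEU4 and BAT2; 1.37% of all regions), and its pooled fold was 2.03 (1.69 to 2.44). Yrm1 was called at BAT2 (2.38% of all regions), Cha4 at BAT2 (0.633%) and Aro80 at LEU4 (1.41%). None of the 10 promoters was called for Gal4 (1.83% of all regions), Yrr1 (1.84%), Lys14 (1.03%), Put3 (0.549%), Urc2 (1.08%) or Hal9 (2.05%). The pooled folds of the 4 lowest were 1.04 for Lys14 (0.823 to 1.32), 0.871 for Put3 (0.673 to 1.12), 0.777 for Yrr1 (0.604 to 0.989) and 0.439 for Gal4 (0.328 to 0.578), the last over its own background set and with the wider ILV5 interval. The median fold of the 10 regions was 0.960 for Lys14, 0.708 for Put3, 0.536 for Yrr1 and 0.332 for Gal4. Over all regions with background insertions it was 0.589, 0.786, 0.198 and 0 in that order. Each library's shares add up to a constant, so a fold also depends on insertions elsewhere. The cause of the low folds was not tested.

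Other genes of the pathway were counted from a list of 35, of which 34 had a promoter region and LEU2 was not analysed here. Leu3 was called at 8 of the 34 (2.28% of all regions). The median fold over the list was 0.657, below background, beside 0.350 over all regions with background insertions. By the listed gene the calls lay mostly in supply and uptake. Some intervals of this list, such as MMF1/PCL7 and GDH1/ATF1, lie between genes transcribed in opposite directions. For those the counts do not separate the promoter of the listed gene from that of its neighbour. OAC1, a mitochondrial carrier of oxaloacetate and isopropylmalate, was highest at 18.8-fold (13.4 to 26.9; 314 insertions). Its interval, SRP21/OAC1, is long (chromosome XI 212998 to 217344). The counts do not place the insertions within it, so they cannot be assigned to the OAC1 promoter alone. MMF1, a mitochondrial protein that clears reactive imine intermediates, was at 8.60-fold (4.88 to 16.01), HOM2, an enzyme of threonine precursor synthesis, at 7.20-fold (4.85 to 10.9), and GDH1, the glutamate dehydrogenase that supplies amino groups, at 6.39-fold (4.75 to 8.70).

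Among the 4 other permease genes, Leu3 was called at TAT1 (8.55-fold, 6.18 to 12.03) and AGP1 (3.77-fold, 2.59 to 5.55) and not at BAP3 (1.18-fold, 0.794 to 1.73). TAT1 is the neighbour of BAP2, so Leu3 insertions were enriched in both successive promoters of that permease pair. Of 8 regulator genes only GCN4, the activator of amino acid synthesis genes, was called (2.73-fold, 2.09 to 3.57), and the promoter of LEU3 itself held 2 insertions (0.666-fold, 0.0675 to 3.5). In the breakdown group ADH1 was called (3.30-fold, 2.44 to 4.48). The ADH1 promoter also drives the fusion on the plasmid, ADH1 was likewise called for Yrm1 (3.20-fold) and in the sef1Δ library (2.20-fold), and whether plasmid copies contributed was not tested.

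**Figure D4:**
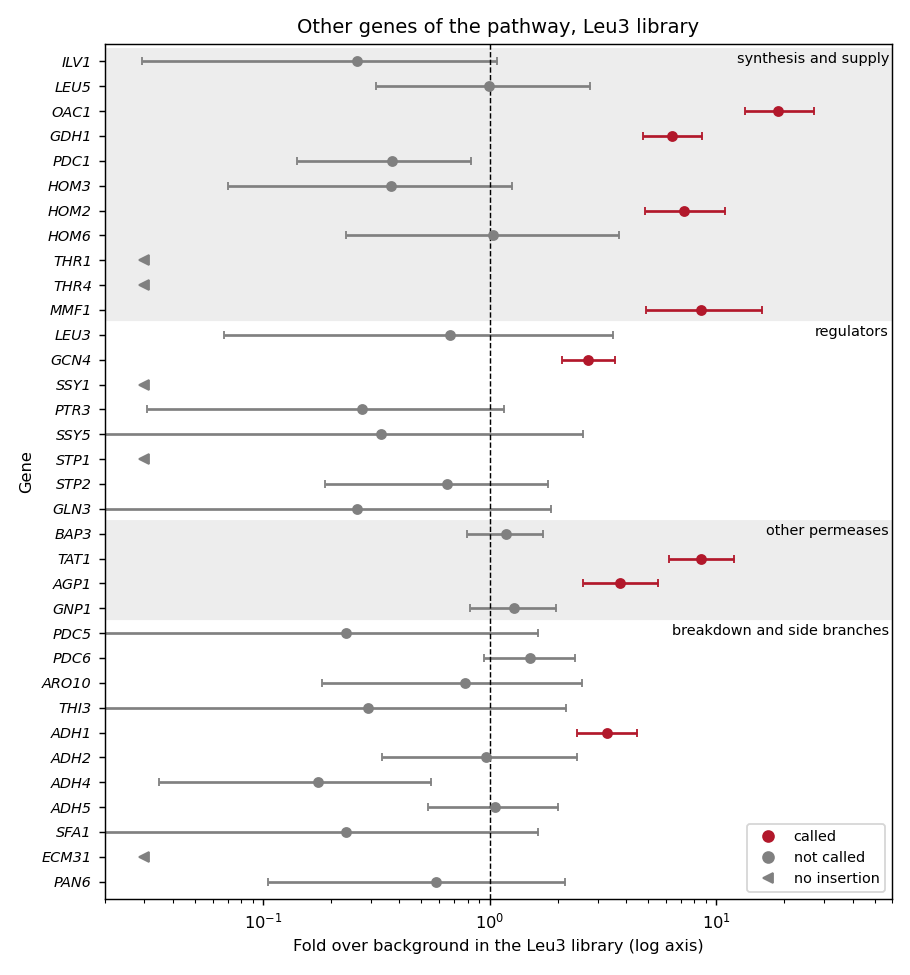
Fold over background in the Leu3 library on a log axis, with 95% counting intervals, at 34 other genes of the pathway grouped by role. OAC1 (18.8-fold), MMF1, TAT1, HOM2, GDH1, AGP1, ADH1 and GCN4 are called (red), and most other intervals span or lie under 1.

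Other factors were called at further genes of this list. Cha4, an activator of serine and threonine breakdown, was called at 3 of the 34 (0.633% of all regions). It placed 246 insertions at MMF1, 70.7-fold (42.7 to 126), and 33 at ILV1, the threonine deaminase that starts isoleucine synthesis (8.43-fold, 4.61 to 15.9). ILV1 held 2 Leu3 insertions (0.259-fold, 0.0292 to 1.08) and 1 Tea1 insertion (0.131-fold). AGP1 was called for Cat8 (3.51-fold) and Cha4 (2.64-fold) as well as Leu3, and TAT1 for Cat8 (2.56-fold). Tea1 was called at MMF1 (5.60-fold) and the alcohol dehydrogenase gene ADH5 (6.86-fold). Hal9 was called at BAP3 (2.70-fold), Put3 at PDC5 (6.02-fold, 17 insertions), and Urc2 at GLN3 (4.43-fold, 13 insertions) and ARO10 (3.83-fold, 15 insertions), at which Aro80 stood at 489-fold. In leu3Δ the alcohol dehydrogenase gene ADH4 was the only call of the 34 (0.148% of all regions; 18 insertions, 3.93-fold, 2.12 to 7.02). The calls of Put3, Urc2 and leu3Δ were lost with a minimum of 20 insertions.

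Regions outside the set with the most similar profile were sought among 445 regions with at least 100 insertions summed over the 12 factor libraries. Likeness was Pearson's r between log2 folds over the 12 libraries and the mean profile of the 9 members with the same flanking genes in every table. The highest were GDH1/ATF1 (r = 0.914), MAE1/TFA1 (0.908), ISU2/HER1 (0.901), DIC1/ORM2 (0.877) and SRP21/OAC1 (0.862). All 5 were called for Leu3, at 6.39-fold to 19.8-fold. The mean profile was itself highest for Leu3 (mean log2 fold 3.07, next Tea1 at 1.17). Regions chosen by likeness to it were thus likely to be high for Leu3, and these calls are not separate evidence. Besides, 11 of the 12 libraries share a background set and all differ in depth, so r is a description only.

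The Gal4 libraries ask whether these promoters take up Gal4 insertions when another protein is missing. None of the 10 promoters was called in hmo1Δ (1.22% of all regions), leu3Δ (0.148%), sef1Δ (1.92%) or yrm1Δ (1.5%). The 9 promoters with the same flanking genes in every table, all but ILV5, together held 9 insertions in hmo1Δ, 25 in leu3Δ, 15 in sef1Δ and 9 in yrm1Δ, against 43 in the Gal4 library. Over the background set of the 15 tables, the folds were 0.399 (0.180 to 0.768) in hmo1Δ, 0.797 (0.507 to 1.20) in leu3Δ, 0.332 (0.183 to 0.557) in sef1Δ and 0.269 (0.122 to 0.518) in yrm1Δ, against 0.392 (0.278 to 0.543) in the Gal4 library. The leu3Δ interval was the only one of these that included background level. Over all regions with background insertions, the median fold was likewise higher in leu3Δ, at 0.624. It was 0 in hmo1Δ, sef1Δ and yrm1Δ, and 0 in the Gal4 library over its own background set. The Gal4 table's own background set, of 103922 insertions, gave 0.414 (0.294 to 0.570) for the Gal4 library. At LEU9 the Gal4 fold was 0.625 over the set of the 15 tables and 0.331 over its own, and at LEU1 it was 0.284 over the set of the 15 tables and 0.454 over its own.

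Single promoters held few insertions in these libraries. LEU1 held 0 in hmo1Δ, 1 in leu3Δ, 0 in sef1Δ and 0 in yrm1Δ, against 5 in the Gal4 library. LEU4 held 1, 6, 5 and 5 in that order of deletions, against 15 in the Gal4 library. ILV3 held 4 insertions in leu3Δ and 0 in the Gal4 library. The ILV5 interval runs to ATG33 in 15 tables and to RSC2 in the Gal4 table (chromosome XII 839252 to 841330, with ATG33 inside), so ILV5 was left out of the comparisons between these libraries.

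Each deletion library was compared with the Gal4 library by the same Fisher's exact test, with a minimum of 10 insertions summed over the pair. Only LEU4 and BAP2 reached that minimum, and neither was higher or lower in any of the 4 comparisons, nor under 0.05 before adjustment. Of all tested regions, 6.79% were higher and 1.36% lower in hmo1Δ, 29.6% and 20.7% in leu3Δ, 11.1% and 3.97% in sef1Δ, and 7.39% and 4.35% in yrm1Δ. At LEU4 the ratio of leu3Δ over Gal4 was 1.40 (0.444 to 3.81; adjusted p = 0.551, Fisher's exact test) and at BAP2, with 4 insertions in leu3Δ against 12 in Gal4, 1.16 (0.274 to 3.84). These intervals leave room for changes of several fold in either direction.

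Between the libraries themselves, the pooled share of these 9 promoters in leu3Δ was 2.03 times that in Gal4 (1.19 to 3.40). Scaled to the median ratio of 2.04 over the 37 regions in which each library held 10 or more, the pooled ratio was 0.997 (0.583 to 1.67). For hmo1Δ, sef1Δ and yrm1Δ the unscaled pooled ratios were 1.02 (0.435 to 2.11), 0.845 (0.436 to 1.55) and 0.685 (0.294 to 1.42). Scaled to their own median ratios, they were 0.842 (0.361 to 1.75), 0.657 (0.339 to 1.21) and 0.548 (0.235 to 1.14).

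**Figure D5:**
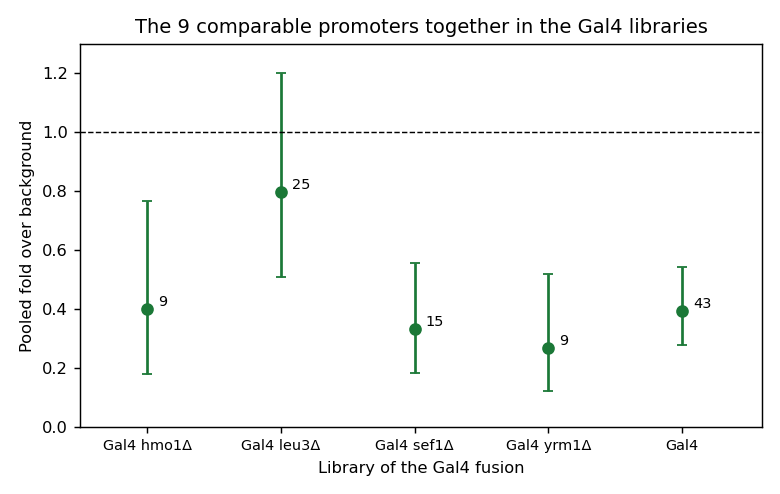
Pooled fold of the 9 comparable promoters, over the background set of the 15 tables, in the 4 Gal4 libraries with a further deletion and the Gal4 library, with 95% counting intervals and the number of insertions beside each point. The leu3Δ interval (0.507 to 1.20) includes 1, and the other 4 lie below it.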

How the data were processed

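Ty5 insertions were profiled in 16 yeast libraries, 1 per group, and groups were taken from the labels. Per the labels' protocols, inverse PCR on DNA cut in 3 restriction digests recovered the insertions. Novoalign and the sacCer2 build are named in the submitters' processing notes, without a version, and the origin of the background set is not given in the sources used here. The authors deposited, for each region between genes, counts of insertions in the library and in a background set, the fraction of all insertions that each count makes up, and p-values of a hypergeometric and a Poisson test, per the file headers. Totals were recovered from counts and fractions, and mitochondrial and plasmid regions were left out. Coordinates are those of the 15 tables that share a region set. Folds, exact conditional binomial intervals (95%) and two-sided Fisher's exact tests with Benjamini-Hochberg adjustment at 0.05 were computed here with Python 3.11.15, scipy 1.17.1 and pandas 2.3.3. Log2 ratios used 0.5 added insertions. The calls and tests were tested on simulated data. Gene order came from a RefSeq table of the R64 assembly.

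The members, lists and tests were chosen with earlier results of these data known. Genes named were the 10 members, the other pathway genes called in at least 1 library, and the 5 regions of the most similar profile. LEU3 was named after its values were seen. Alternatives covered the threshold, p-value, minimum, scaling, background set and comparison library. PCR without molecular tags means that intervals cover counting error only.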

Additional observations from a re-analysis of the deposited data

Results flagged for a closer look

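The regions at the far ends of the member genes, which were not used above, held called insertions in 4 of 144 values (9 regions in 16 libraries), or 2.78%, beside 0.148% to 2.38% of all regions per library. SCL1/LEU1, downstream of LEU1 and upstream of the proteasome gene SCL1, held 10 Leu3 insertions against 2 in the background (11.7-fold, 2.49 to 109). TAL1/ILV5, downstream of ILV5 and upstream of TAL1, held 129 Yrm1 insertions (4.38-fold, 3.28 to 5.87). TIP1/BAP2, downstream of BAP2 and upstream of TIP1, held 53 Tea1 insertions (2.60-fold, 1.73 to 3.93) and 25 Hal9 insertions (2.34-fold, 1.38 to 3.87).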

How the results depend on the processing

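Leu3 was called at 8 members and Tea1 at 4 under all 5 alternatives to the call rule, and the Fisher's exact test of Leu3 against Tea1 gave 8 higher and 1 lower under all 3 of its alternatives. With p at 0.01 or the authors' Poisson p, BAP2 was added for Urc2 (1 member) and LEU9 for Cat8, and at p of 1e-05 Aro80 lost LEU4 (0 members). Without its most influential region the pooled fold was 12.3 (no LEU1) to 21.3 (no LEU4) for Leu3, and 3.01 (no BAT2) to 8.30 (no ILV5) for Tea1. It was 0.782 for Yrm1 and 0.826 for Cha4 without BAT2, and 1.63 for Cat8 and 0.860 for Aro80 without LEU4, so 3 of these 4 turned to below background. Counting insertions between genes only gave 5.77 for Tea1. With a minimum of 1 insertion in leu3Δ against Gal4, ILV3 (4 against 0) was higher, 1 member. Scaled to the median ratio, the log2 ratio turned to -0.48 (LEU4) and -0.70 (BAP2) in leu3Δ, -0.27 (BAP2) in sef1Δ and -0.11 (LEU4) in yrm1Δ, none past the threshold. Among the other pathway genes, Cat8 had 2 calls, 5 with p at 0.01 or the Poisson p and 1 at 1e-05, and at 1e-05 Urc2 had 0 against 2, leu3Δ and sef1Δ 0 against 1 each. A minimum of 20 gave 0 for Put3, Urc2 and leu3Δ. At p of 0.01 leu3Δ had 2, and Gal4, Lys14 and hmo1Δ had 1 against 0. The pooled Gal4 fold over the 9 comparable promoters and the background set of the 15 tables was chosen after seeing the data. The cause was not tested. No paired analysis was possible because each group has 1 library, and leaving out a replicate was not possible either. The planned count of binding motifs was not run, since no promoter sequence was at hand.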

Other observations

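Of the 160 values for 10 promoters in 16 libraries, 17 were called, beside 0.148% to 2.38% of all regions per library. A further 10 had an authors' p under 0.05 without passing 0.001, and the share of all regions in that range was not counted. Beside those given above, these were LEU4 for Hal9 (1.53-fold, 0.960 to 2.38) and ILV5 for Cat8 (1.58-fold, 0.924 to 2.64). ILV6 was the only member called in no library.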
